A study of Mus musculus with 6 samples.

Results

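The genes described here encode 10 transcription factors of the ETS family: Etv1, Etv4, Etv5, Etv6, Ets1, Ets2, Elf1, Elf3, Elk3 and Ehf. They were taken by name, each through its brightest probe set among those annotated to a single gene symbol, and all 10 were measured among 19938 genes. The samples were 6 Affymetrix arrays of 4T1 cells, a transplantable mouse mammary carcinoma line. The control group was 3 dishes given the vehicle DMSO, and the treated group was 3 dishes given 500 nM TKI258, each for 16 h in medium with 10% fetal serum. TKI258, also called dovitinib, blocks the tyrosine kinases of the FGF, VEGF and PDGF receptors. All dishes held the same line, so the p-values measure the spread between dishes of 1 line and not between tumours or animals. RNA came from whole dishes, in which fewer cells of a kind and less RNA per cell cannot be told apart.

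ETS factors share a DNA-binding domain that reads a short GGAA core. Receptor tyrosine kinases reach several of them through RAS, RAF, MEK and ERK: ERK phosphorylates ETS1, ETS2 and the ternary complex factors ELK1, ELK3 and ELK4, while the PEA3 subfamily genes Etv1, Etv4 and Etv5 are themselves classical transcriptional readouts of FGF signalling. In mammary epithelium, PEA3 factors are known from branching and from invasive tumours, and the epithelium-restricted factors Elf3 and Ehf from differentiation.

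After TKI258 the PEA3 subfamily fell, with Etv4 lower by 4.27-fold, Etv5 by 3.84-fold and Etv1 by 1.39-fold. Etv5 and Etv1 each had another, dimmer probe set that fell further than the one used here. The genomic match of these probe sets was not checked. Elk3 also fell, by a small amount. Elf3 and Ets2 rose, and Etv6, Ets1, Elf1 and Ehf did not pass the test. Of the 10 genes, 4 were lower and 2 were higher in limma at an adjusted p below 0.05, a rule that 27.0% of all genes passed (12.6% lower and 14.4% higher). Bright genes passed more often: among genes whose mean lay above the median of all probe-set values, 44.2% did in the same fit (21.2% lower and 23.0% higher), and 9 of the 10 ETS genes were that bright, 6 of them called. The groups of arrays did not overlap in 7 of the 10, against 40.2% of all genes and 60.5% of the bright ones. The median log2 change was -0.05 over the 10 genes and 0.01 over all genes.

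**Figure D1:**
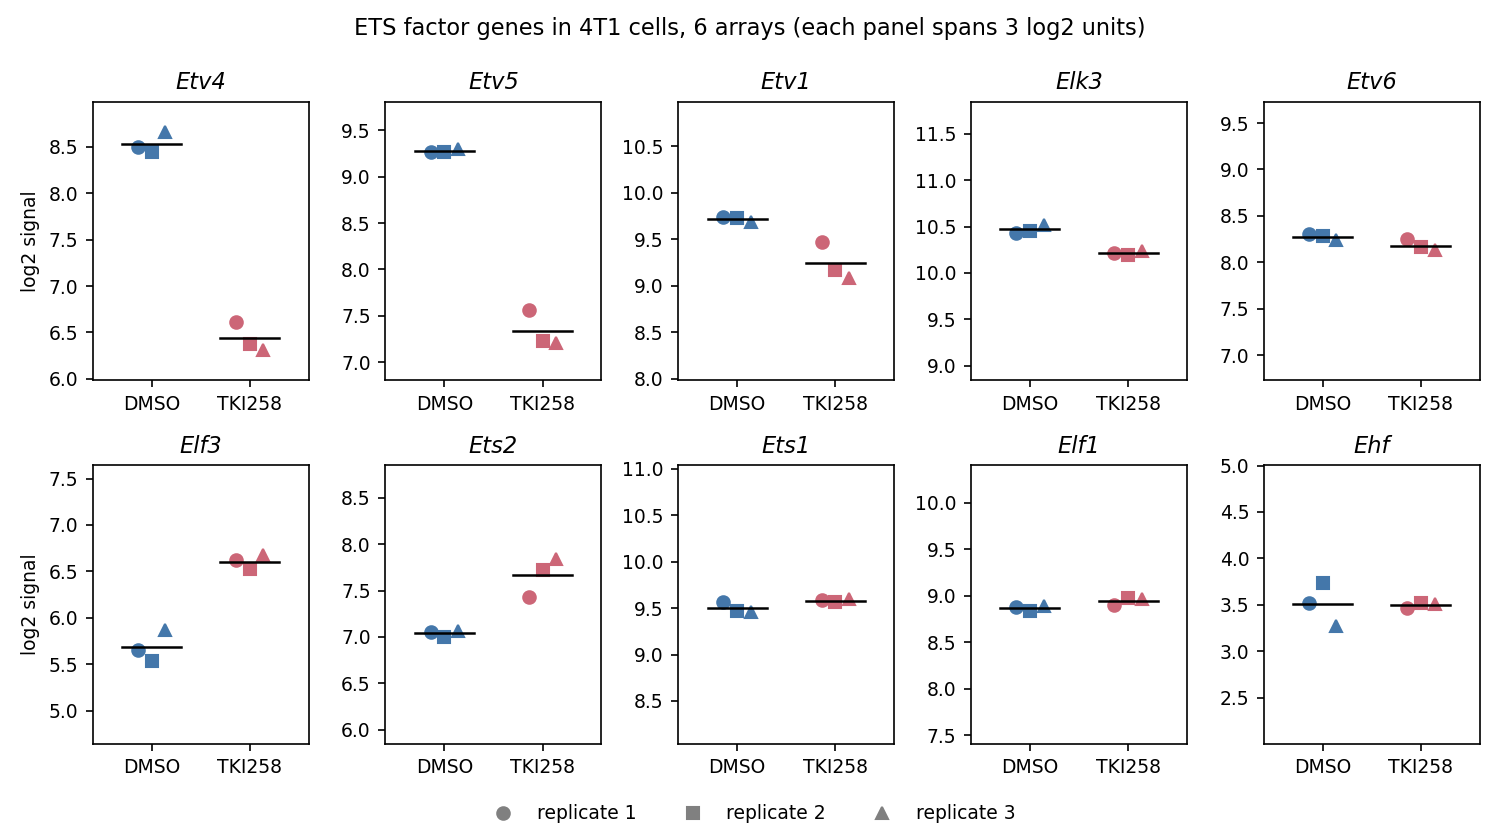
Log2 signal (vertical axis, each panel spanning 3 log2 units) of the 10 ETS factor genes on the 3 DMSO and the 3 TKI258 arrays. Points are arrays, with their shape giving the replicate number, and bars are group means; Etv4 and Etv5 lie far lower with TKI258, Elf3 and Ets2 higher, and the arrays of Etv6, Ets1 and Ehf overlap between the groups.

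Array medians lay between 4.97 and 5.04 log2 units, and correlations over all genes were 0.997 to 0.998 within groups and 0.988 to 0.990 between them. Over all genes, 2866 were higher and 2519 lower. With arrays centred on the medians of their probe sets with 1 symbol the split was 2025 higher and 4067 lower, so the balance of directions over all genes depended on the scaling. Of 10 epithelial markers, 9 had a mean signal above the median of all probe-set values, as did 1 of 10 endothelial, 2 of 10 blood cell and 5 of 8 fibroblast markers. The mean log2 signal of the epithelial list ran from 8.21 to 8.27 on DMSO arrays and from 8.45 to 8.50 on TKI258 arrays. Its genes did not move together: 4 rose, 2 fell and 4 did not pass, with a median log2 change of 0.09. That is 60% called, against 27.0% of all genes and 44.2% of bright ones. The endothelial list stayed between 4.01 and 4.07 on all arrays. The leukocyte marker Ptprc and the endothelial markers Cdh5 and Pecam1 had signals of 3.76, 3.67 and 3.70 log2 units on DMSO arrays, all below the median of all probe-set values, 5.01. The fibroblast list ran from 5.19 to 5.29 with DMSO and from 5.71 to 5.77 with TKI258, where Dcn (log2 change 2.01) and Pdgfra (1.499) rose and the other 6 genes did not pass. The blood cell list ran from 4.28 to 4.33 and from 4.18 to 4.22, where Cd53 fell (-1.76), Cd68 rose (0.82) and the other 8 did not pass. These 4 markers were named after their values were seen. The part of such cells in the results below was not tested.

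Etv4, which encodes the founding PEA3 factor, showed the largest change of the 10 by the brightest probe set of each gene. Its log2 signal was 8.49, 8.44 and 8.66 on the DMSO arrays and 6.62, 6.38 and 6.32 on the TKI258 arrays. The groups lay far apart, and every treated array was below every control. The log2 change was -2.09 (SE 0.10, 95% interval -2.31 to -1.88, adjusted p = 1.63e-06 in limma), a 4.27-fold lower signal. It ranked 11 among all falls in the table. A dimmer probe set of Etv5, described next, fell further, with a log2 change of -2.19.

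Etv5, which encodes the factor also called ERM, changed almost as much. Its brighter probe set read 9.26, 9.26 and 9.30 with DMSO and 7.57, 7.23 and 7.21 with TKI258. The controls lay within 0.04 log2 units of each other, and TKI258 replicate 1 was the highest of the treated arrays. The log2 change was -1.94 (SE 0.10, 95% interval -2.16 to -1.72, adjusted p = 2.46e-06 in limma), 3.84-fold lower and rank 17 among all falls. A dimmer probe set annotated to the same gene read 8.94, 8.79 and 8.90 with DMSO and 7.14, 6.54 and 6.37 with TKI258. Tested singly, it gave a log2 change of -2.19 (SE 0.17, adjusted p = 3.54e-05 in limma over all probe sets with 1 symbol). Both probe sets thus showed the fall, with the same treated array closest to the controls. Where the probes of these sets match the genome was not checked.

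Etv1, the third PEA3 gene, moved in the same direction by less. Its log2 signal was 9.74, 9.73 and 9.69 with DMSO and 9.47, 9.17 and 9.09 with TKI258. The groups did not overlap, but the treated arrays were spread over 0.38 log2 units, with replicate 1 nearest to the controls. The log2 change was -0.47 (SE 0.10, 95% interval -0.69 to -0.26, adjusted p = 0.00538 in limma), a 1.39-fold lower signal. A second probe set, dimmer, read 9.53, 9.53 and 9.38 with DMSO and 9.04, 8.98 and 8.75 with TKI258, a log2 change of -0.55 (SE 0.09, adjusted p = 0.00170 in limma over probe sets). The Etv1 call was lost with limma's treat against a fold of 1.2 (adjusted p = 0.217) and with the ordinary variance of each gene (adjusted p = 0.0639), in a range of 0.000402 to 0.217 over 17 alternatives. As for Etv5, the genomic match of the Etv1 probes was not checked.

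The size of the fall within the subfamily was compared array by array, with the brighter probe sets of Etv5 and Etv1. The order of Etv4 and Etv5 depended on this choice. By the dimmer Etv5 probe set, Etv5 fell further (log2 change -2.19) than Etv4 (-2.09), the reverse of the order given below. The dimmer probe sets were not compared array by array. The log2 signal of Etv4 minus that of Etv1 ran from -1.29 to -1.03 on DMSO arrays and from -2.85 to -2.77 on TKI258 arrays, a difference between the changes of -1.62 log2 units. For Etv5 minus Etv1 that difference was -1.47, and for Etv4 minus Etv5 it was -0.15. In that last pair the arrays lay between -0.82 and -0.64 with DMSO and between -0.95 and -0.85 with TKI258. In each case the groups did not overlap and the two-sided exact permutation test gave p = 0.1, the smallest that 3 arrays against 3 allow (p = 0.1 after adjustment over the 7 pairs compared, which were chosen after their values were seen).

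**Figure D2:**
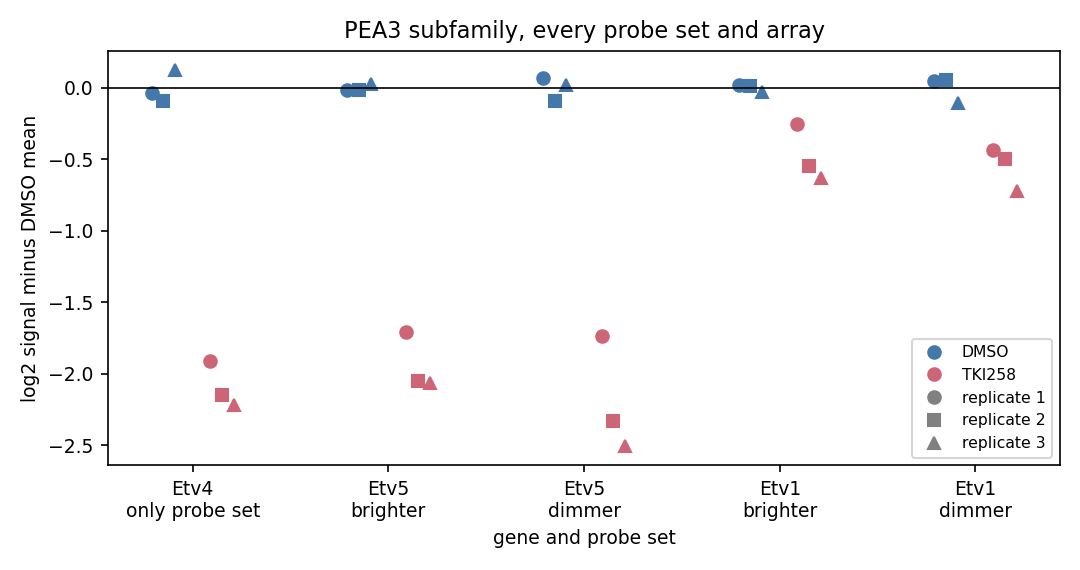
Log2 signal minus the DMSO mean (vertical axis) for each probe set of Etv4, Etv5 and Etv1, with points for single arrays, shape for replicate number and colour for group. Both Etv5 probe sets fell about as far as Etv4, both Etv1 probe sets fell by less, and TKI258 replicate 1 lay nearest to 0 in all 5 probe sets.

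TKI258 replicate 1 lay closest to the DMSO mean in 4 of the 6 genes past the threshold, and in 32.4% of all genes past it. Without that array the log2 change was -2.18 for Etv4, -2.06 for Etv5, -0.59 for Etv1 and 0.74 for Ets2, and each stayed past the threshold in limma.

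For 7 of the 10 genes, all but Etv4, Ets1 and Ehf, RefSeq (GRCm38.p6) supplied 1 or more windows running from 250 bases before a transcription start to 50 bases after it, 10 windows in all. The letters TGAATG, the core of the octamers read by the repressor Capicua, which binds the PEA3 genes when ERK is quiet, were searched on both strands after the Etv5 windows had been read. They occurred in 1 of the 10 windows, at the downstream start of Etv5, and there 3 times. At least 1 copy was found in 12.7% of all 32851 windows, and 3 or more in 0.170%. The cut of 3 was taken from the Etv5 window itself, so its share is a description and not a test. The full octamers TGAATGAA and TGAATGGA were in none of the 10 windows and in 2.47% of all windows. That Etv5 window (chr16:22438319-22438618, minus strand, GRCm38.p6) is shown because it belongs to a gene with one of the largest falls and holds these letters. Capitals mark TGAATG or its reverse complement CATTCA, with first bases at -242, -198 and -129 from the start. The Elf3 window (chr1:135258423-135258722, minus strand) is shown beside it as that of the gene with the largest rise, and holds none of the searched letters.
Etv5: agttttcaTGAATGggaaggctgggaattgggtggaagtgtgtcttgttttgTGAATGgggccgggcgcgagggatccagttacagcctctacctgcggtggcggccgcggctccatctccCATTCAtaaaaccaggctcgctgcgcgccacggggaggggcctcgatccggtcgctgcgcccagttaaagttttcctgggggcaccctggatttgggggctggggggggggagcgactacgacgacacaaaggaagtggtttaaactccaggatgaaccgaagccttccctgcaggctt
Elf3: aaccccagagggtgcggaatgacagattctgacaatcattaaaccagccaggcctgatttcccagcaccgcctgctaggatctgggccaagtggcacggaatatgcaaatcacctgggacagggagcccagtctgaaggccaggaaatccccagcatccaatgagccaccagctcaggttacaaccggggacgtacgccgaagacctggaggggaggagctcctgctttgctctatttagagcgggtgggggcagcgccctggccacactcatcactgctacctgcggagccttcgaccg

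Other searched letters were scarce in the 10 windows. The ETS-type CCGGAAG, the cyclic AMP response element TGACGTCA and the CArG box read by serum response factor were in none of them, against 8.86%, 1.79% and 1.63% of all windows. The AP-1 type TGANTCA was in 1, at the second start of Elf1, against 7.81% of all windows. All were searched on both strands, and TGAATG lies within the Capicua octamers. These matches describe letters in short windows and are not measurements of binding.

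Elf3, an epithelium-specific factor also called ESE-1, rose most of the 10. Its log2 signal was 5.65, 5.53 and 5.86 with DMSO and 6.62, 6.52 and 6.67 with TKI258. Every treated array was above every control, and the controls were the more scattered group. The log2 change was 0.92 (SE 0.09, 95% interval 0.71 to 1.13, adjusted p = 9.30e-05 in limma), a 1.89-fold higher signal and rank 353 among all rises. Its relative Ehf, or ESE-3, read 3.52, 3.74 and 3.28 with DMSO and 3.47, 3.52 and 3.51 with TKI258. This signal lay below the median of all probe-set values on each array, the groups overlapped, and the log2 change was -0.01 (95% interval -0.25 to 0.23, adjusted p = 0.960 in limma). The table has no detection calls, so whether Ehf was expressed cannot be given. Elf5, the third gene of this subfamily and a factor of milk-secreting epithelium, was also below that median, at 4.32 and 4.34 log2 units (log2 change 0.02).

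Ets2 rose while Ets1 did not pass. Ets2 read 7.052, 6.998 and 7.063 with DMSO and 7.43, 7.72 and 7.84 with TKI258. The controls were tight and the treated arrays were spread over 0.40 log2 units, all of them above the controls. The log2 change was 0.63 (SE 0.10, 95% interval 0.40 to 0.85, adjusted p = 0.00141 in limma), or 1.54-fold higher. Ets1, the closest relative of Ets2, read 9.57, 9.47 and 9.46 with DMSO and 9.59, 9.56 and 9.60 with TKI258. These groups overlapped, and the log2 change was 0.08 (95% interval -0.06 to 0.22, adjusted p = 0.404 in limma), with the opposite sign, -0.015, when arrays were centred on their medians. The pair of Etv4 and Ets2 had the largest difference of changes among the 7 pairs, -2.72. The log2 signal of Etv4 minus that of Ets2 ran from 1.441 to 1.597 with DMSO and from -1.52 to -0.82 with TKI258. The change of Ets2 was 0.54 log2 units greater than that of Ets1 (two-sided exact permutation p = 0.1, the smallest possible).

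Elk3, the ternary complex factor also called Net, fell slightly. Its log2 signal was 10.43, 10.45 and 10.52 with DMSO and 10.21, 10.20 and 10.24 with TKI258. The groups were narrow and did not overlap. The log2 change was -0.25 (SE 0.06, 95% interval -0.39 to -0.11, adjusted p = 0.0130 in limma), 1.19-fold lower. The call was lost without DMSO replicate 3 (adjusted p = 0.0561) and with treat against a fold of 1.2, over a range of 0.000559 to 1.00 in 17 alternatives.

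Of the other ternary complex factor genes, Elk1 rose by 0.24 (SE 0.07, adjusted p = 0.0248 in limma), from 7.80 ± 0.08 (SD, n = 3) to 8.04 ± 0.01, although 6 of 17 alternatives ended this call, 3 of them by leaving out an array (DMSO replicate 1, DMSO replicate 2 and TKI258 replicate 2, with adjusted p = 0.0542, 0.108 and 0.0648 in turn, in a range of 0.00839 to 1.00). Elk4 had a log2 change of -0.04 (adjusted p = 0.705 in limma). The change of Elk3 was 0.49 log2 units below that of Elk1, and the 2 groups of arrays did not overlap in this difference (two-sided exact permutation p = 0.1, the smallest possible). Srf, the partner that ternary complex factors bind on DNA, fell by 0.35 (SE 0.07, adjusted p = 0.00505 in limma).

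Etv6 and Elf1 did not pass. Etv6, a repressor also called TEL, read 8.31, 8.28 and 8.24 with DMSO and 8.25, 8.17 and 8.13 with TKI258. Its groups overlapped by a narrow margin and the log2 change was -0.09 (95% interval -0.24 to 0.05, adjusted p = 0.350 in limma). Elf1, a broadly expressed activator, read 8.88, 8.83 and 8.89 with DMSO and 8.90, 8.97 and 8.97 with TKI258. Its groups did not overlap, yet the log2 change was 0.08 (95% interval -0.06 to 0.22, adjusted p = 0.400 in limma), and it was -0.017 with arrays centred on their medians.

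Of the wider family, 25 of 26 listed genes were measured, and 3 rose, 6 fell and 16 did not pass. Among the 15 that are not in the list of 10, Elk1 rose, and Erf and Gabpa fell, or 3 of 15, against 27.0% over all genes (3 of the 8 bright ones, against 44.2%). Their median log2 change was 0.01. Erf, a repressor that ERK drives out of the nucleus, had a mean of 7.38 ± 0.13 (SD, n = 3) with DMSO and of 7.02 ± 0.13 with TKI258. Its log2 change was -0.36 (SE 0.09, adjusted p = 0.0170 in limma). It missed the threshold in 5 of 17 alternatives, such as when DMSO replicate 3 (adjusted p = 0.0653) or TKI258 replicate 1 (0.0553) was omitted, in a range of 0.00337 to 0.864. Its relative Etv3 had a log2 change of 0.04 (adjusted p = 0.679 in limma), and of -0.054 with arrays centred on their medians. Gabpa, a factor of housekeeping and mitochondrial genes, had a log2 change of -0.19 (SE 0.06, adjusted p = 0.0466 in limma). Its call was lost in 10 of 17 alternatives, among them the replicate number as a block (adjusted p = 0.0740) and the omission of any single array (0.0558 to 0.173), in a range of 0.00718 to 1.00. The blood and endothelial ETS genes Spi1, Spib, Spic, Erg and Fli1 had mean signals below the median of all probe-set values and did not pass.

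**Figure D3:**
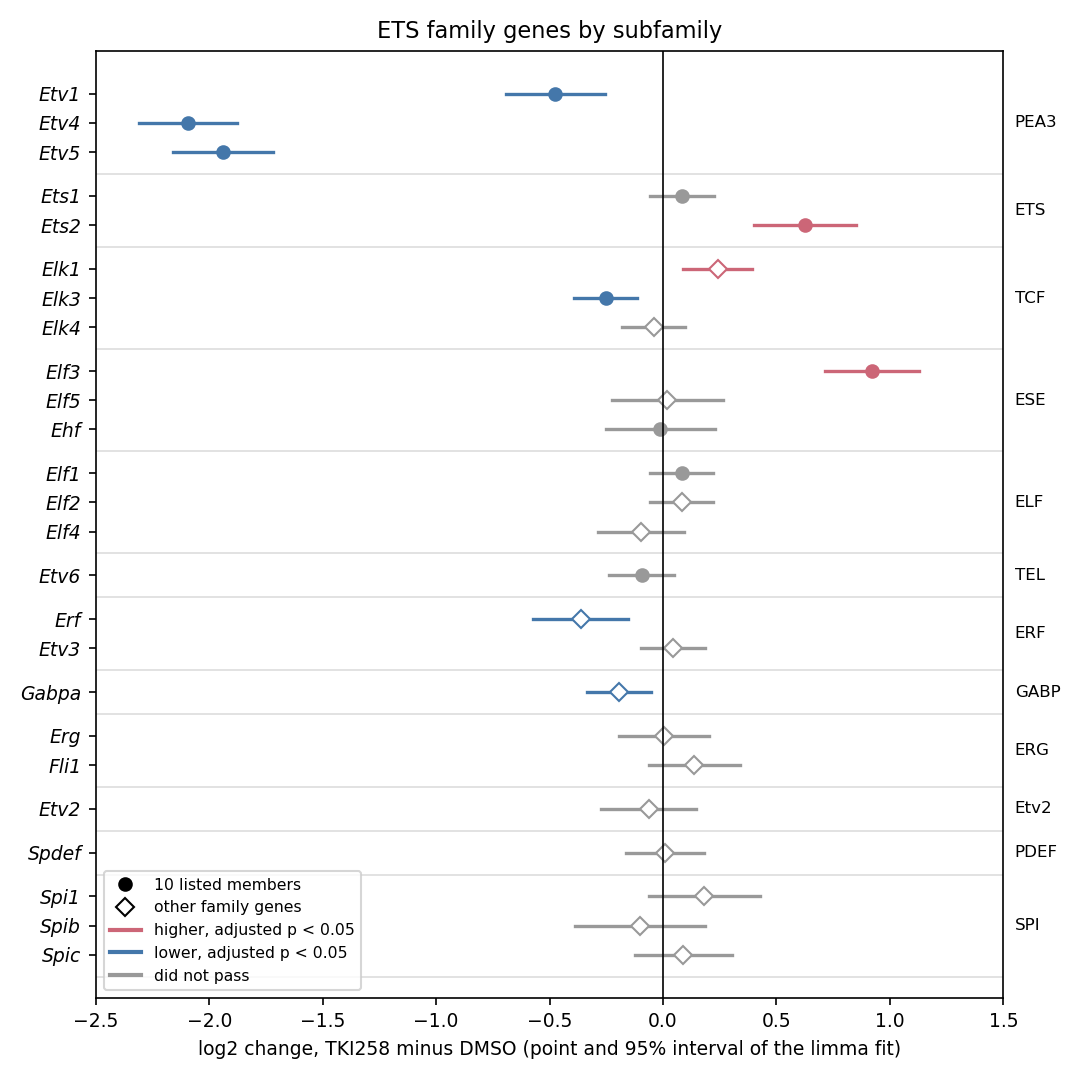
Log2 change of TKI258 minus DMSO (horizontal axis) with its 95% interval from limma for 25 ETS family genes, grouped by subfamily. Filled circles are the 10 listed genes and open diamonds the others, and colour marks direction and whether the adjusted p was below 0.05; the PEA3 genes lie on the left, Elf3 and Ets2 on the right, and most others near 0.

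**Figure D4:**
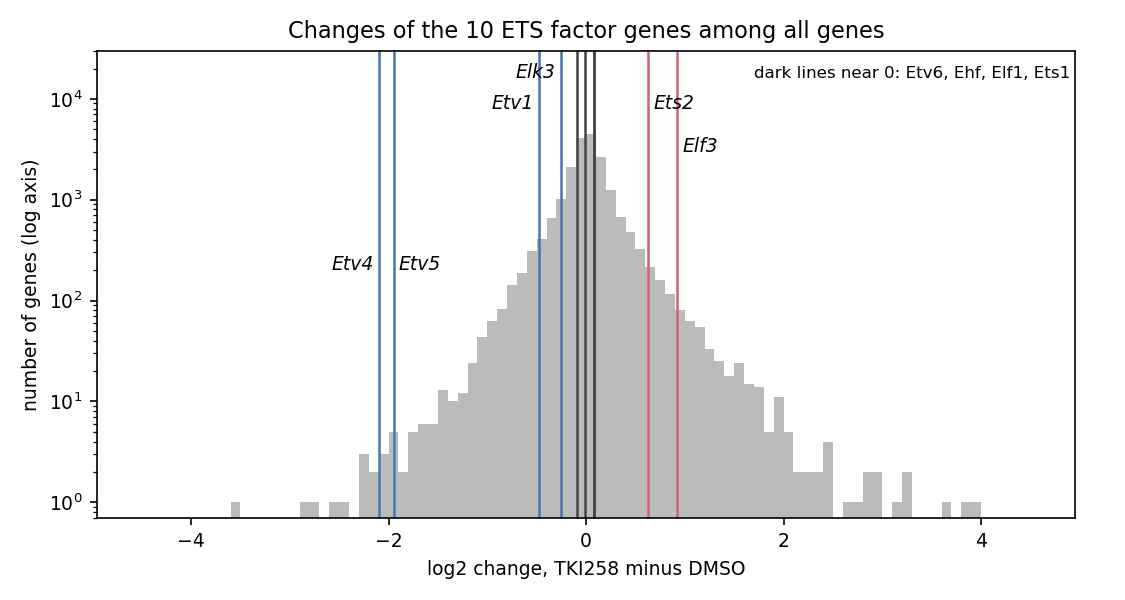
Number of genes (vertical log axis) by log2 change in bins of 0.1 (horizontal axis) over all 19938 genes, with vertical lines at the 10 ETS factor genes. Etv4 and Etv5 lie in the far left tail, among the 139 called genes lower by more than 2-fold, and the other 8 lie within 1 log2 unit of 0.

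Genes whose pattern over the 6 arrays was most like that of Etv4 were found by the root mean square difference of log2 signals, each taken relative to its own DMSO mean. Genes with clone or predicted names were left out, as they were for Elf3 below. The 5 nearest were Apcdd1 (0.08 log2 units), Dll4 (0.12), Etv5 (0.13), Nptx1 (0.13) and Nrarp (0.13). Apcdd1 encodes a WNT inhibitor, Dll4 a Notch ligand and Nrarp a Notch feedback inhibitor. Their log2 changes lay between -2.17 and -1.94, so this likeness is mostly one of size and direction, and it is given without a test. For Elf3 the nearest were the sialidase gene Neu1 (0.02 log2 units), Stap2 (0.05), the keratin gene Krt19 (0.05), Scrn1 (0.06) and the matriptase gene St14 (0.06), with log2 changes of 0.91 to 0.97.

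Among genes listed for proteins that bind, repress or degrade ETS factors or act beside them, 21 of 24 were measured. Of these, 5 rose and 7 fell (57.1%, against 27.0% of all genes). All but 1 were measured as bright, and 12 of these 20 passed, against 44.2% of bright genes in the same fit. Where bright genes were fitted alone, 5 of the 20 rose and 8 fell, against 52.2% of bright genes called. The median log2 change of the list was 0.04. Cic, which encodes Capicua, averaged 8.04 ± 0.07 (SD, n = 3) with DMSO and 8.42 ± 0.09 with TKI258 and rose by 0.38 (SE 0.07, adjusted p = 0.00362 in limma). Atxn1, which encodes a Capicua-binding protein, rose by 0.64 (SE 0.08, adjusted p = 0.000437 in limma), while its relative Atxn1l had a log2 change of 0.04 (adjusted p = 0.736). Cop1, the ubiquitin ligase gene known for degrading PEA3 proteins, had a log2 change of 0.02 (adjusted p = 0.875 in limma). With arrays centred on their medians, Atxn1l and Cop1 had -0.058 and -0.080. Dcaf6, whose tie to ETS factors was not checked, rose by 0.84, and Fos and Pias3 rose by 0.47 and 0.37. Fos encodes an AP-1 subunit, and AP-1 and ETS factors often bind side by side.

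Of the genes that fell in this list, Fosl1, which encodes the AP-1 subunit FRA-1, was the lowest. It averaged 9.20 ± 0.02 (SD, n = 3) with DMSO and 7.29 ± 0.21 with TKI258, and its log2 change was -1.92 (SE 0.10, adjusted p = 3.09e-06 in limma). Jun, another AP-1 subunit gene, fell by 0.64 (SE 0.07, adjusted p = 0.000134 in limma). Cbfb, the partner subunit of RUNX factors, fell by 0.28, and Gabpb1, the partner of Gabpa, by 0.24. The Gabpb1 call (adjusted p = 0.0278 in limma) was lost in 8 of 17 alternatives, among them the omission of any array but TKI258 replicate 3 (adjusted p = 0.0537 to 0.112, in a range of 0.00427 to 1.00). Srf, described above, Gabpb2 at -0.20 and the co-repressor gene Tle1 at -0.27 were the others; the latter pair were chosen for mention after their values were seen. The Gabpb2 call (adjusted p = 0.0448 in limma) was lost in 9 of 17 alternatives, among them the replicate block (0.0562) and the omission of any array but TKI258 replicate 1, in a range of 0.00808 to 1.00. The Tle1 call (adjusted p = 0.0369 in limma) was lost in 8, among them the same omissions, in a range of 0.00598 to 1.00. The number that fell was 4 when any 1 of the DMSO arrays or TKI258 replicate 2 was omitted.

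Few genes of the relay from FGF receptors to ERK passed the test at the transcript level. Of 25 listed, 18 were measured, and 3 rose and 0 fell (16.7%, against 27.0% of all genes and 44.2% of bright ones, to which 17 of the 18 belong), with a median log2 change of 0.00. Those that rose were the docking protein gene Gab1 at 0.50 (SE 0.09, adjusted p = 0.00324 in limma), the receptor gene Fgfr1 at 0.30 (SE 0.06, adjusted p = 0.00428) and the adaptor gene Shc1 at 0.28 (SE 0.07, adjusted p = 0.0105). Without TKI258 replicate 3 the number that rose was 5. These arrays measure RNA and not the phosphorylation of these proteins.

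Of 40 genes listed from general knowledge as ETS targets, 37 were measured, and 19 fell and 5 rose (64.9%, against 27.0% of all genes). Of the 31 bright ones 22 passed, against 44.2% of bright genes. Their median log2 change was -0.28, against 0.01 over all genes. This list, like the members and the other lists, was chosen with earlier results of these data known. Its share is therefore a description and not a test. Many of the genes also answer to AP-1 and other ERK-driven factors, so the list is not particular to ETS proteins. The stromelysin gene Mmp3 averaged 11.37 ± 0.08 (SD, n = 3) with DMSO and 8.49 ± 0.29 with TKI258, and its log2 change was -2.89 (SE 0.13, adjusted p = 1.63e-06 in limma). The EGF receptor ligand gene Hbegf, the collagenase gene Mmp1a, the urokinase receptor gene Plaur and the protease inhibitor gene Timp1 fell, with log2 changes of -1.95, -1.76, -1.69 and -1.38. Mmp1a was dim, with 4.995 log2 units on DMSO arrays and 3.239 on TKI258 arrays against a median of all probe-set values of 5.01, so the size of its change is uncertain. It also has a close relative, Mmp1b, and its probes may read both. The gelatinase gene Mmp9 had a log2 change of -1.44 (SE 0.09), the ERK phosphatase gene Dusp6 of -1.06 (SE 0.08) and the cyclin D1 gene Ccnd1 of -1.02 (SE 0.07), with adjusted p of 8.06e-06, 1.60e-05 and 9.54e-06 in limma.

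The targets that rose were the membrane protease gene Mmp14 at 0.72 (SE 0.06, adjusted p = 3.15e-05 in limma), the integrin genes Itgb3 at 0.78 and Itgb6 at 0.31, the TGF-beta receptor gene Tgfbr2 at 0.65 and the chemokine receptor gene Cxcr4 at 0.25. Itgb6 was also dim, with a mean below the median of all probe-set values. The Cxcr4 call (adjusted p = 0.0332 in limma) was lost in 10 of 17 alternatives, including the omission of any array but DMSO replicate 1, in a range of 0.0130 to 1.00. The matrix metalloprotease genes therefore did not share a direction: 5 fell, Mmp14 rose, and Mmp2 and Mmp7 had log2 changes of -0.01 and -0.08 and did not pass.

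**Figure D5:**
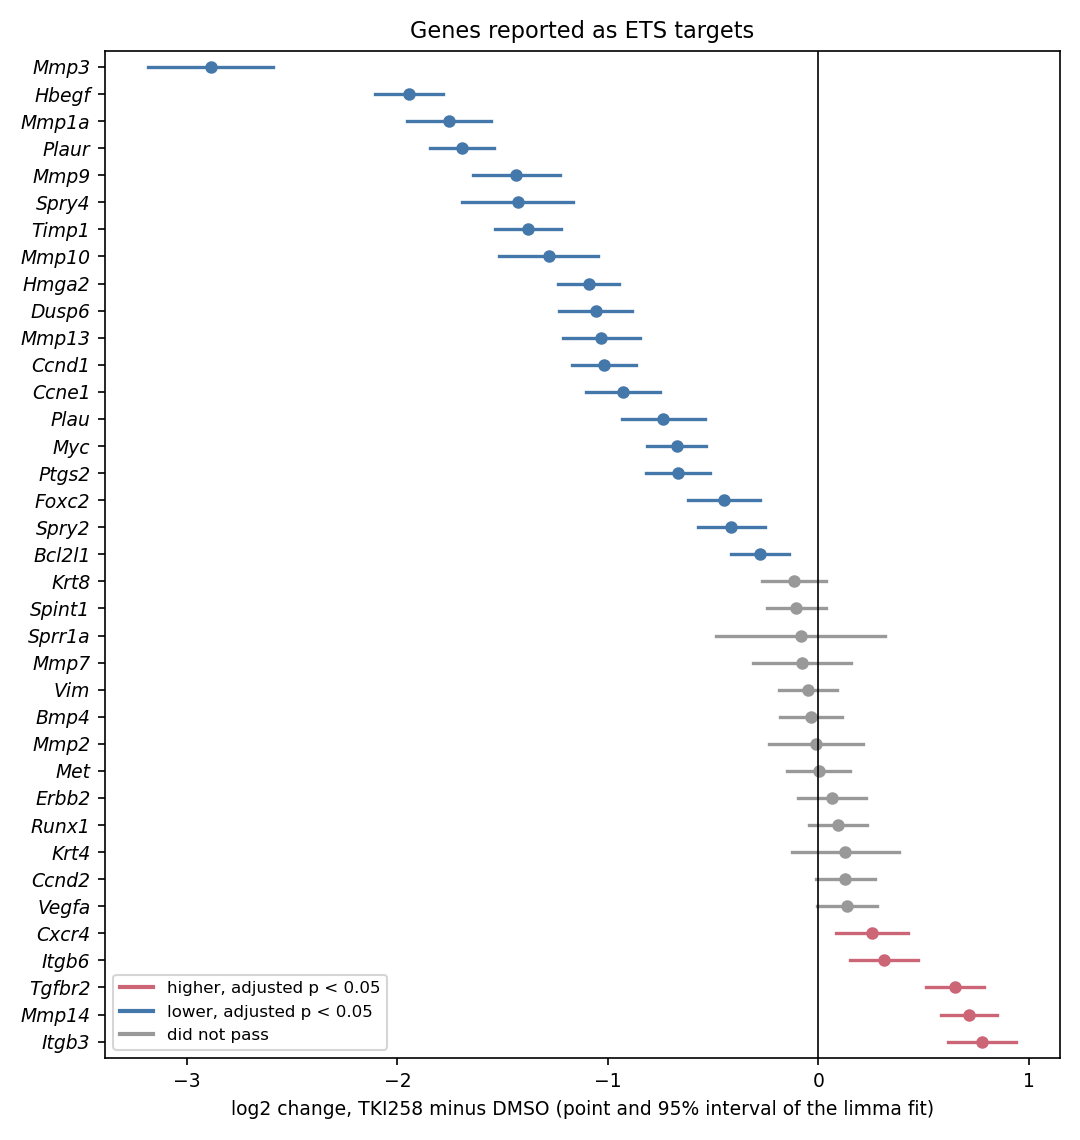
Log2 change of TKI258 minus DMSO (horizontal axis) with its 95% interval from limma for the 37 measured genes listed as ETS targets, sorted by change and coloured by direction and call. The changes run from -2.89 for Mmp3 to 0.78 for Itgb3, with 19 lower, 5 higher and 13 not past the threshold.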

How the data were processed

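The authors deposited log2 signals of 35557 probe sets on 6 arrays. The submitters' processing notes list RMA, affy and limma but give neither versions nor the role of each. The log2 scale was inferred from the values' range. A genome build was not found in the labels or headers. RMA usually sets arrays to a common distribution, which can hide a shift shared by all genes and shrinks changes of dim probe sets. The number of arrays limits the precision. Probe sets were named by the 2016 platform annotation: 21789 had 1 symbol, 1621 several and 12147 none. Gene IDs of 21698 were found in the GRCm38.p6 gene table, and 0 symbols changed. Each gene took its probe set with the highest mean, giving 19938 genes. The treatment effect was fitted in limma 3.58.1 (R 4.3.3), with lmFit and eBayes, no filter and no covariate, two-sided, with Benjamini-Hochberg adjustment over all genes at 0.05. The test was checked on simulated data, in which far fewer genes changed than were called here. It recovered 9 of 50 genes with a log2 change of 0.25, 46 of 50 with 0.5 and all 50 with 1 and with 2. Of its 163 calls, 8 were false. Changes near 0.25 log2 units were thus mostly missed there.

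Other settings tried were a replicate block, omission of each array, renewed quantile normalization, median centring, bright genes only, the mean of probe sets, probe sets singly, trend and robust eBayes, array weights, treat, an adjusted p of 0.01 and ordinary variance. Named were the 10 genes, up to 5 genes each way with the smallest adjusted p per list, and Cic, Atxn1l, Cop1, Erf, Etv3, Elk1, Elk4, Srf, Dusp6, Mmp9 and Ccnd1. Others were picked once their values were known. The members and lists were chosen with earlier results of these data known.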

Additional observations from a re-analysis of the deposited data

How the results depend on the processing

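Of the 10 ETS genes, Etv4, Etv5, Ets2 and Elf3 kept their direction and call in all 17 alternatives, with log2 changes of -2.19 to -2.03, -2.07 to -1.88, 0.53 to 0.74 and 0.82 to 1.01. The number of the 10 that fell was 3 to 4 with single arrays left out, and 2 with treat. Changes that turned sign were Ehf without DMSO replicate 2 (0.10) and without TKI258 replicate 1 (0.0029), within a range of -0.13 to 0.10 over omitted arrays, and, with arrays centred on their medians, Ets1 (-0.015), Elf1 (-0.017), Atxn1l (-0.058), Cop1 (-0.080) and Etv3 (-0.054). None of these passed in the setting that turned its sign.

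Over all genes, bright genes fitted alone gave 5857 calls among 11215 (52.2%), median centring gave 4067 lower, and treat 1057 higher and 864 lower. Among the other 15 family genes the number that rose was 0 to 1 with arrays left out, and 0 with median centring, treat and an adjusted p of 0.01. The number that fell was 0 to 1 with arrays left out, 1 with the replicate block, renewed quantile normalization and ordinary variance, and 0 with treat and an adjusted p of 0.01. For regulators, treat gave 2 higher and 2 lower, an adjusted p of 0.01 gave 4 lower, and arrays left out 4 to 6 lower. In the relay, 5 rose with bright genes only and with array weights, 0 with treat, and 3 to 5 with arrays left out. Among targets, 3 rose with median centring and with treat.

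With the replicate number as a block, 2877 genes were higher and 2487 lower, and among the named genes the calls of Gabpa (adjusted p = 0.0740) and Gabpb2 (0.0562) were lost. The sample titles give replicate numbers and no pairing. Residuals of same-numbered arrays correlated at 0.02, 0.05 and 0.15, and 3 such values cannot show whether these arrays were handled together. Over all genes the median log2 change was 0.01 as deposited and -0.08 with median centring, so changes near this size have no settled sign. Without detection calls, dim genes such as Ehf, Mmp1a and Itgb6 are the least certain.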
